A study of Homo sapiens with 6 samples.

Results

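The regulators described here are 47 genes that write, remove or read DNA methylation, form the Polycomb complexes, or modify and remodel histones. They were picked by gene symbol and by what they encode, with earlier results of these data known. All 47 had a row among the 23615 rows of the deposited expression table. H1 cells, an established line of human embryonic stem cells (hESCs), received 0.5 nM BMP-4 during the first 3 days and were then kept in serum-containing medium (10% FCS) until RNA was taken on day 10. The cells were given either 5 μM DAPT dissolved in ethanol or the ethanol vehicle alone, renewed every day for the whole protocol. DAPT blocks γ-secretase, the protease complex that cuts Notch receptors and other membrane proteins. Poly-A RNA was sequenced from 6 strand-specific libraries, 3 per treatment, and the comparison asks which transcripts differ when γ-secretase is blocked during ectoderm specification. The study's methods describe this BMP-4 protocol as giving a mixed population of lineages, and all samples come from the same cell line.

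The table holds 1 FPKM value per treatment (fragments normalised to transcript length and sequencing depth), pooled by the authors over the 3 libraries. It holds no value per library, so no replicate spread, standard error or test could be had, the depth is unknown, and every value below is a single pooled level. Fold changes are DAPT over ethanol with no pseudocount. A gene counts as past 2-fold where its fold is over 2 and at least 1 of its 2 levels reaches 1 FPKM, a filter that 13480 rows passed. Of these, 110 were listed at 0 in 1 treatment and have no finite log2 fold change. They count in the shares past a fold limit. Medians, percentiles, correlations and transcript matching over all genes leave them out. The sources do not say whether the 3 libraries of a treatment came from separate cultures. The deposited workbook has a sheet of all genes and another of changed genes, and the treatment names are swapped between them although the values are equal. The names in the sheet of changed genes were taken, by which POU5F1, the pluripotency factor OCT4, stood at 47.3 FPKM in DAPT-treated and 240 FPKM in ethanol-treated cells, and TFAP2A, a surface ectoderm factor, at 21.8 and 7.10 FPKM. By qRT-PCR the paper reports less POU5F1 and more TFAP2A mRNA with DAPT, the directions that this naming gives. With the other naming every direction below would be inverted.

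In mammals, methyl groups are placed on CpG sites of unmethylated DNA by DNMT3A and DNMT3B and copied after replication by DNMT1, and TET enzymes oxidise them as a step towards removal. Polycomb repressive complex 2 (PRC2) methylates lysine 27 of histone H3 (the number is the residue), and Polycomb repressive complex 1 (PRC1) binds this mark and ubiquitinates histone H2A. Both complexes are known for holding lineage genes silent but ready in pluripotent cells, and subunits that replace each other give each complex several versions. Demethylases, deacetylases and ATP-driven remodelers of the SWI/SNF and CHD families add further layers of control over which genes a cell can use.

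Most of these regulators had nearly the same level in the 2 treatments. Of the 45 that passed the filter, 29 were within 1.2-fold, 37 within 1.5-fold and 42 within 2-fold. The 29 are 64.4% of the 45, where 47.7% of all genes past the filter were within 1.2-fold. The median log2 fold change of the 45 was -0.0013, beside 0.00063 over the 13370 genes past the filter and above 0 in both treatments. The 3 past 2-fold were SMARCA2, an ATPase of the SWI/SNF remodeler, which was higher with DAPT, and the DNA methyltransferase DNMT3B and the PRC1 subunit CBX7, which were lower. These 3 are 6.67% of the 45, and 11% of all genes past the filter were past 2-fold, 5.15% higher and 5.81% lower. At 1.5-fold, 4 regulators were higher (SMARCA2, TET2, JARID2 and EZH2) and 4 lower (CBX7, DNMT3B, TET1 and KDM2B), which is 17.8%, where all genes gave 22.6%, 10.8% higher and 11.7% lower. Neither share was above that of all genes. In bulk RNA such as this, fewer cells of a type and less RNA per cell cannot be told apart.

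**Figure D1:**
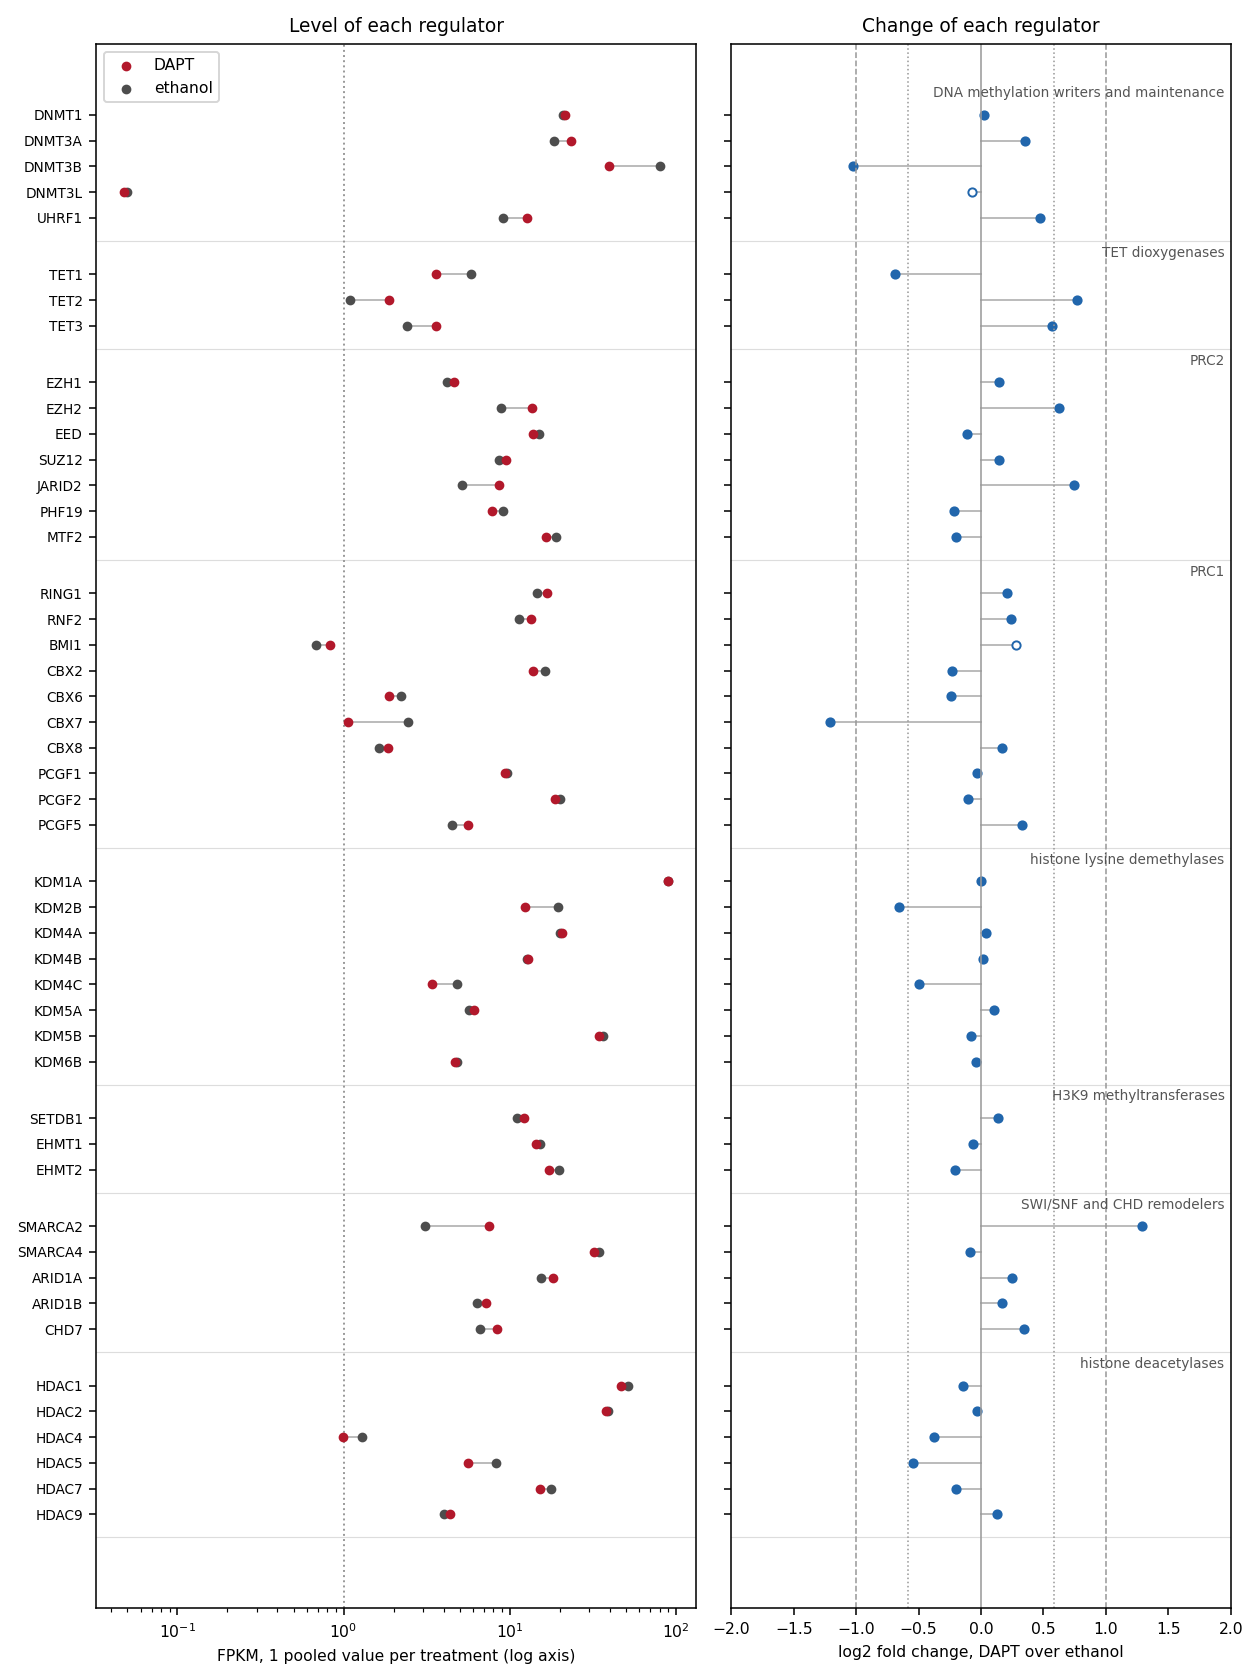
Level of each of the 47 regulators in FPKM on a log axis (left, red for DAPT and dark grey for ethanol, 1 pooled value per treatment) and its log2 fold change, DAPT over ethanol (right, dashed lines at 2-fold, dotted at 1.5-fold, open circles for the 2 genes under 1 FPKM in both treatments). SMARCA2 lies to the right of the dashed lines at 1.29, CBX7 and DNMT3B to the left at -1.21 and -1.03, and the other genes lie between them.

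**Figure D2:**
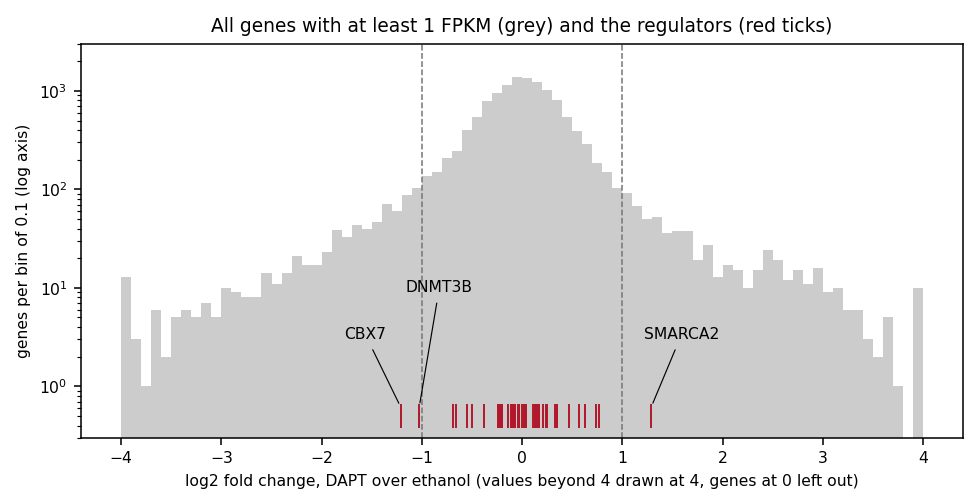
Number of genes per bin of log2 fold change, DAPT over ethanol, for genes of at least 1 FPKM in 1 treatment (grey, log axis), with 1 red tick for each of the 45 regulators that passed the filter. Dashed lines mark 2-fold, which 11% of all genes and 3 of the regulators exceeded.

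Levels of the regulators spanned a wide range. KDM1A, the demethylase LSD1 that acts on histone H3 lysine 4, was the highest, at 90.4 FPKM in DAPT-treated and 90.5 FPKM in ethanol-treated cells. DNMT3B came second in the sum of the 2 levels, followed by the deacetylases HDAC1 and HDAC2. DNMT3L, a partner of the de novo methyltransferases without catalytic activity, was near 0 with 0.0474 and 0.0498 FPKM, and BMI1, a PRC1 subunit, had 0.833 FPKM in DAPT-treated and 0.684 FPKM in ethanol-treated cells. These 2 did not pass the filter. The rows of 12 of the 47 genes overlap another row, so that reads may have been divided between the 2 rows. These are DNMT3A, BMI1, KDM1A, UHRF1, PCGF1, PCGF2, KDM4A, KDM5A, EHMT1, ARID1B, HDAC4 and HDAC7, and none of the 8 genes past 1.5-fold is among them.

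Among the genes that write and maintain DNA methylation, the de novo enzymes went in opposite directions. DNMT3B (chr20:31350191-31397162, hg19, as are all loci of the table) had 39.7 FPKM in DAPT-treated and 80.8 FPKM in ethanol-treated cells, a 2.04-fold lower level with a log2 fold change of -1.03. It lay just past the 2-fold limit, and 5.12% of all genes past the filter had a lower log2 fold change. DNMT3A (chr2:25455830-25565459) had 23.5 FPKM in DAPT-treated and 18.4 FPKM in ethanol-treated cells, 1.27-fold higher. Its row overlaps another row of the table, so reads of the 2 may have been divided between them. With ethanol DNMT3B therefore stood 4.38 times above DNMT3A and with DAPT 1.69 times, and its share of their summed level went from 81.4% to 62.8% while the sum itself went from 99.3 to 63.2 FPKM. DNMT1, the maintenance enzyme, had 21.5 and 21.1 FPKM, a log2 fold change of 0.02. UHRF1, which brings DNMT1 to half-methylated sites after replication, had 12.7 FPKM in DAPT-treated and 9.15 FPKM in ethanol-treated cells, for a log2 fold change of 0.47 that stayed within 1.5-fold. So the maintenance pair differed little or was slightly higher with DAPT, and DNMT3B alone of the 4 measured members was past 1.5-fold.

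DNMT3B is known as a gene with high expression in human pluripotent cells, and markers of those cells moved with it. All 10 pluripotency markers had a lower level with DAPT, 4 of them past 2-fold, and their summed level was 497 FPKM in DAPT-treated and 976 FPKM in ethanol-treated cells. NANOG had 2.06 and 10.5 FPKM, TDGF1 22.6 and 105 FPKM, and DPPA4 45.3 and 95.7 FPKM, beside the values of POU5F1 above. SOX2 (log2 fold change -0.45) and ZFP42 (-0.03) were within 1.5-fold, so the markers did not differ evenly. On this scale DNMT3B at -1.03 lay closest to DPPA4 at -1.08. Of 9 surface ectoderm markers past the filter 5 were past 2-fold higher, among them TP63 (3.88 and 0.546 FPKM) and GRHL2 (13.9 and 3.90 FPKM). The summed level of the whole list of 10 was 1887 and 1599 FPKM. Most of that sum was KRT8 (961 and 876 FPKM) and KRT18 (846 and 687 FPKM), both within 1.5-fold and in overlapping rows. The 6 endoderm markers were all past 2-fold lower, with a sum of 35.8 FPKM in DAPT-treated and 498 FPKM in ethanol-treated cells. Most of that sum was APOA1 (24.7 and 403 FPKM). The 4 mesoderm markers past the filter were all lower, 3 of them past 2-fold. Their whole list of 6 had sums of 63.5 and 96.6 FPKM, most of it HAND1 (50.0 and 62.1 FPKM), which was within 1.5-fold. Of the 5 neural markers 3 passed the filter and 1 of these was past 2-fold, PAX6, which was higher at 2.57 and 1.17 FPKM. The more abundant NES (69.5 and 56.4 FPKM) and OTX2 (19.8 and 21.2 FPKM) were within 1.5-fold, in opposite directions, and SOX1 and ZIC1 were under 0.2 FPKM in both treatments. The part of these marker lists in the values of DNMT3B or of any other regulator was not tested.

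**Figure D3:**
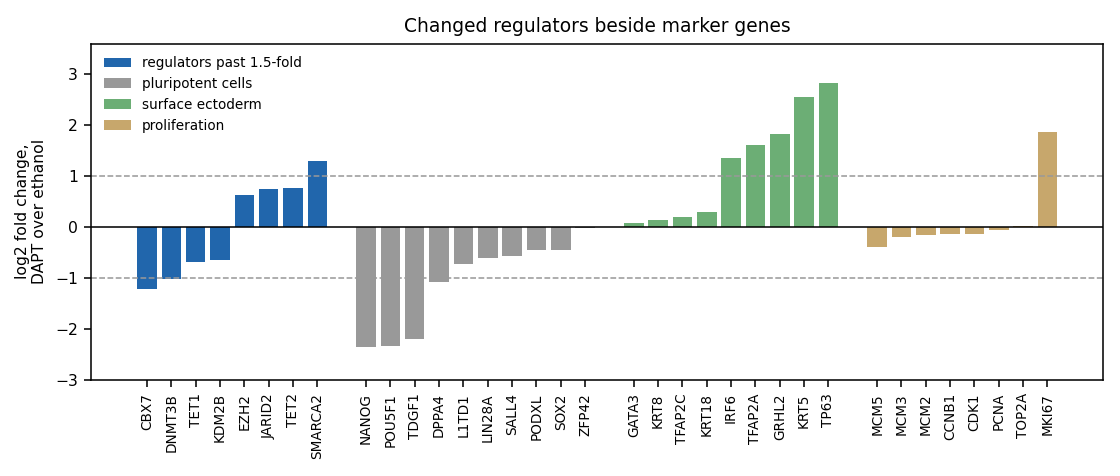
Log2 fold change, DAPT over ethanol, of the 8 regulators past 1.5-fold (blue) beside measured markers of pluripotent cells (grey), surface ectoderm (green) and proliferation (tan), 1 bar per gene from pooled FPKM, with dashed lines at 2-fold. All 10 grey bars point down and the 9 green bars point up, while 7 of the 8 tan bars stay within 2-fold.

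The 3 TET dioxygenases gave a nearly constant sum with a different composition. Their summed level was 9.09 FPKM in DAPT-treated and 9.35 FPKM in ethanol-treated cells, a log2 difference of -0.04. TET1 (chr10:70320117-70454239), the member known for its high level in pluripotent cells, had 3.62 FPKM in DAPT-treated and 5.83 FPKM in ethanol-treated cells, 1.61-fold lower. TET2 (chr4:106067032-106200960), known for its frequent mutation in blood cancers, had 1.88 FPKM in DAPT-treated and 1.10 FPKM in ethanol-treated cells, 1.71-fold higher. TET3 (chr2:74273450-74335302), the form that is stored in the mouse egg, had 3.59 FPKM in DAPT-treated and 2.42 FPKM in ethanol-treated cells, 1.48-fold higher. TET1 was thus the leading member with ethanol, at 62.4% of the family's summed level, and level with TET3 in the DAPT cells, at 39.8% and 39.5%. TET2 went from 11.8% to 20.7%. The ratio of TET1 to TET3 was 2.41 with ethanol and 1.01 with DAPT. None of the 3 was past 2-fold, and all 3 stood at levels of a few FPKM.

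**Figure D4:**
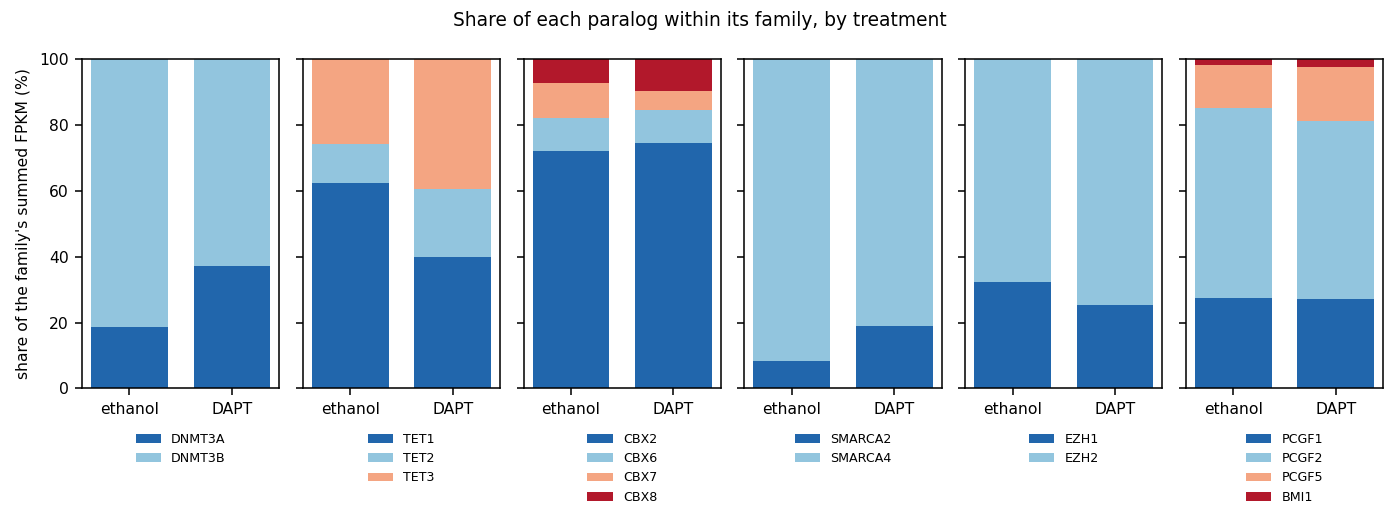
Share of each paralog in the summed FPKM of its family (y axis, %) with ethanol (left bar) and DAPT (right bar), from 1 pooled value per treatment. DNMT3B went from 81.4% to 62.8%, TET1 from 62.4% to 39.8%, CBX7 from 10.8% to 5.67% and SMARCA2 from 8.23% to 18.9%.

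All 7 PRC2 genes were within 2-fold, and their median log2 fold change was 0.14. The core subunits EED, which binds the mark that the complex makes, and SUZ12, its scaffold, differed by 1.08-fold or 1.11-fold. EED had 13.9 FPKM in DAPT-treated and 15.0 FPKM in ethanol-treated cells, and SUZ12 had 9.55 and 8.64 FPKM. EZH2 (chr7:148504464-148581441), the main catalytic subunit in dividing cells, had 13.6 FPKM in DAPT-treated and 8.86 FPKM in ethanol-treated cells, 1.54-fold higher. The table marks the row of EZH2 as failed in the authors' comparison, a mark that 188 rows carry, and what lay behind the mark is not given. EZH1, the alternative catalytic subunit, had 4.63 and 4.20 FPKM, so EZH2 made up 74.6% of the pair with DAPT and 67.8% with ethanol. JARID2 (chr6:15246206-15522273), which helps to bring PRC2 to its targets, had 8.67 FPKM in DAPT-treated and 5.19 FPKM in ethanol-treated cells, 1.67-fold higher. The Polycomb-like proteins PHF19 (7.81 and 9.09 FPKM) and MTF2 (16.5 and 19.0 FPKM) had log2 fold changes of -0.22 and -0.20. Within PRC2 the catalytic subunit EZH2 and JARID2 were therefore past 1.5-fold higher, and the other 5 were within 1.2-fold.

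In PRC1 the genes of the enzymatic core were level, and 1 of the chromodomain genes was lower. RING1 and RNF2, the ubiquitin ligases of the complex, had 16.9 and 13.4 FPKM with DAPT and 14.6 and 11.4 FPKM with ethanol. The row of RING1 lies on an alternative haplotype of chromosome 6. Their ratio, RNF2 over RING1, was 0.795 with DAPT and 0.778 with ethanol. PCGF2, PCGF1 and PCGF5, the subunits that set which version of PRC1 is built, had log2 fold changes of -0.10, -0.04 and 0.33, and PCGF2 led them with 18.7 FPKM in DAPT-treated and 20.1 FPKM in ethanol-treated cells. BMI1, the close relative of PCGF2, stood at 0.0446 of its level with DAPT and at 0.0341 with ethanol, in a row that overlaps another, as does that of PCGF2.

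The CBX proteins carry the chromodomain by which PRC1 binds methylated lysine 27. CBX7 (chr22:39526779-39548538) had 1.06 FPKM in DAPT-treated and 2.45 FPKM in ethanol-treated cells, 2.32-fold lower, with a log2 fold change of -1.21, the lowest of the 45. In mouse embryonic stem cells CBX7 is the main CBX subunit and gives way to others, CBX2 among them, as the cells differentiate. In these samples CBX2 was the highest of the 4 in both treatments, with 13.9 FPKM in DAPT-treated and 16.3 FPKM in ethanol-treated cells, and its share of their sum was 74.4% and 72.1%. CBX6 (1.88 and 2.22 FPKM) and CBX8 (1.84 and 1.63 FPKM) were within 1.2-fold. CBX7 was therefore above CBX8 with ethanol (10.8% and 7.23% of the sum) and under it with DAPT (5.67% and 9.86%). The value of CBX7 lies close to the filter, and with 1 FPKM added to both levels its log2 fold change was -0.75, no longer past 2-fold.

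CBX7 is shown with its promoter because it is the member furthest below 0, and its start site lies in dense CpG sequence, the substrate of the DNA methylation enzymes. The 250 bases before the RefSeq start (GRCh38.p14, chr22:39152681-39152930, minus strand) hold 41 CG dinucleotides, in capitals, 20 of them in the first 125 bases and 21 in the last.
CBX7: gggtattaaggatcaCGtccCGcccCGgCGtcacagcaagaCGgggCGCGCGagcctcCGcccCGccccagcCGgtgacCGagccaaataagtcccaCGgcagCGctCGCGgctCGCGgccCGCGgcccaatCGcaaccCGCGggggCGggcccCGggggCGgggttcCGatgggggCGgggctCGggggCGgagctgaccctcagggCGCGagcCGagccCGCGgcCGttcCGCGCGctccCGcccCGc

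Promoters of this CpG-rich kind were common among the regulators. RefSeq gave 78 windows of 300 bases (250 before a start and 50 from it on) for 42 of the 47 genes. Their median was 28 CG dinucleotides, beside 14 in all 35116 windows of 27305 genes. Those windows were not limited to genes past the filter, while most of the regulators passed it. The part of expression in this and the following differences was not tested. Windows with 20 or more CG made up 64.1% of those of the regulators and 41.2% of all. Of 3 motifs searched on both strands, GTGGGAA, bound by RBPJ, the DNA-binding partner of cleaved Notch, was in windows of 2 of the 42 genes, 4.76% beside 7.62% of all genes with a window. These 2 were DNMT3B and PCGF2, each at a start inside the RefSeq gene record, 17467 and 3164 bases downstream of its 5′ end. The octamer ATGCAAAT, bound by POU factors such as POU5F1, was in windows of 1 gene, HDAC9, which is 2.38% beside 2.19%. TTTGGCGC or TTTCCCGC, forms of the site of the cell cycle factors of the E2F family, were in windows of 5 genes, 11.9% beside 2.75%. The regulators had more windows per gene, which raises a share counted by gene. By window the shares were 6.41% beside 2.27% for E2F, 2.56% beside 6.25% for RBPJ and 2.56% beside 1.77% for the octamer. Both E2F forms contain CG, and the part of the higher CG count in their share was not tested. A match describes letters in these windows and was not tested as a binding site.

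The 5 genes with E2F letters were the PRC2 genes EZH2, SUZ12, MTF2 and PHF19 and the maintenance factor UHRF1, and stretches of 60 bases around the match are shown because 4 of them belong to the same complex. Capitals mark the match, as TTTGGCGC in EZH2, as TTTCCCGC in SUZ12 and as its reverse complement in the others. The loci are chr7:148884262-148884321 (EZH2, minus strand), chr17:31936792-31936851 (SUZ12), chr1:93079253-93079312 (MTF2), chr9:120877307-120877366 (PHF19, minus strand) and chr19:4909461-4909520 (UHRF1) in GRCh38.p14. The starts of PHF19 and UHRF1 lie inside the RefSeq gene record, 26940 and 6421 bases from its 5′ end. That record can be wider than the row of the expression table. The row of PHF19 (chr9:123617931-123639606, hg19) is shorter than 26940 bases, so these need not be inner starts of the measured transcripts.
EZH2: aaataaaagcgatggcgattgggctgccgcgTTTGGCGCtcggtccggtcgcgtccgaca
SUZ12: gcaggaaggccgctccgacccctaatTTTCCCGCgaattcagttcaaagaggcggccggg
MTF2: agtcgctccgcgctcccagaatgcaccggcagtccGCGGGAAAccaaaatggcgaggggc
PHF19: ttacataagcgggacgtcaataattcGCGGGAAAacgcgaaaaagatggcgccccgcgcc
UHRF1: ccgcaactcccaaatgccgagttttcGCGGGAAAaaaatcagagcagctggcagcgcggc
In EZH2 the match begins 1 base after the start and in MTF2 5 bases after it, while in UHRF1 it begins 14 bases, in PHF19 152 bases and in SUZ12 189 bases before the start. The 5 genes did not share a direction, with log2 fold changes of 0.62 (EZH2), 0.47 (UHRF1), 0.15 (SUZ12), -0.20 (MTF2) and -0.22 (PHF19). Of 8 proliferation markers, several of which E2F factors are known to control, 7 were within 2-fold and their median log2 fold change was -0.14. PCNA, for example, had 125 FPKM in DAPT-treated and 130 FPKM in ethanol-treated cells, and MKI67 alone was past 2-fold higher, at 3.87 and 1.06 FPKM.

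The 8 histone lysine demethylases were all within 2-fold, with a median log2 fold change of -0.02. KDM2B (chr12:121866900-122018920), which binds unmethylated CpG islands and brings the PCGF1 version of PRC1 to them, had 12.5 FPKM in DAPT-treated and 19.7 FPKM in ethanol-treated cells, 1.58-fold lower. Its partner PCGF1 had 9.36 and 9.59 FPKM, so the 2 genes of this version of the complex did not move alike. KDM4C, one of the enzymes that act on lysine 9 of histone H3, had 3.42 FPKM in DAPT-treated and 4.83 FPKM in ethanol-treated cells, 1.41-fold lower. Its relatives KDM4A (20.8 and 20.2 FPKM) and KDM4B (12.9 and 12.8 FPKM) differed by 1.03-fold or less. KDM5A and KDM5B, which remove methyl groups from lysine 4, had log2 fold changes of 0.10 and -0.08, and KDM6B, which removes the mark of PRC2, had 4.72 and 4.85 FPKM. KDM1A, at the top of all levels, differed by less than 0.1%.

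The 3 methyltransferases for lysine 9 of histone H3 were within 1.2-fold. SETDB1, which silences endogenous retroviruses, had 12.2 FPKM in DAPT-treated and 11.0 FPKM in ethanol-treated cells. EHMT1 (14.5 and 15.2 FPKM) and EHMT2 (17.2 and 19.9 FPKM), which act as a pair, kept a ratio of EHMT2 to EHMT1 of 1.19 with DAPT and 1.31 with ethanol. The row of EHMT2 lies on another alternative haplotype of chromosome 6.

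Among the remodelers, SMARCA2 was the regulator furthest above 0. SMARCA2 (chr9:2015342-2193623), the ATPase BRM, had 7.56 FPKM in DAPT-treated and 3.09 FPKM in ethanol-treated cells, 2.44-fold higher, with a log2 fold change of 1.29 that 96.8% of all genes past the filter fell short of. SMARCA4, the ATPase BRG1, occupies the same place in the complex and is the form known from embryonic stem cells. It had 32.4 FPKM in DAPT-treated and 34.5 FPKM in ethanol-treated cells, for a log2 fold change of -0.09. SMARCA4 was above SMARCA2 in both treatments, but SMARCA2 went from 8.23% to 18.9% of their sum, while the sum was 39.9 FPKM in DAPT-treated and 37.6 FPKM in ethanol-treated cells. ARID1A (18.3 and 15.4 FPKM) and ARID1B (7.16 and 6.39 FPKM), which also replace each other, kept a ratio of ARID1B to ARID1A of 0.391 and 0.415. CHD7, the remodeler mutated in CHARGE syndrome, had 8.40 FPKM in DAPT-treated and 6.62 FPKM in ethanol-treated cells, 1.27-fold higher.

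SMARCA2 is shown as the member furthest above 0, for comparison with the promoter of CBX7. The 250 bases before its first RefSeq start (GRCh38.p14, chr9:2015097-2015346, plus strand, 1 of 4 windows for this gene) hold 29 CG dinucleotides, in capitals, 20 in the first 125 bases and 9 in the last, so CpG sites thin out towards the start.
SMARCA2: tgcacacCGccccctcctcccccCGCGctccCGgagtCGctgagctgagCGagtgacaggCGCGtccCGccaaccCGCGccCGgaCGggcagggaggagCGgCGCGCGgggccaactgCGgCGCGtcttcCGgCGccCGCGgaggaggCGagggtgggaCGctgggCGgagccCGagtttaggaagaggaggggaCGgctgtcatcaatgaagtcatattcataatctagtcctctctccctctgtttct
Neither window is a measure of methylation, which was not assayed in these samples.

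The 6 histone deacetylases were all within 1.5-fold, and 5 had a lower level with DAPT. HDAC1 (46.7 and 51.7 FPKM) and HDAC2 (38.3 and 39.2 FPKM), the class I enzymes of several repressor complexes, were the highest. Of the class IIa enzymes, which shuttle between nucleus and cytoplasm, HDAC5 had 5.65 FPKM in DAPT-treated and 8.25 FPKM in ethanol-treated cells, 1.46-fold lower, in a row that the table marks as failed. HDAC4 had 0.989 and 1.29 FPKM, HDAC7 had 15.3 and 17.7 FPKM, and HDAC9, with a log2 fold change of 0.13, was the only one slightly higher with DAPT. None of the 6 was past 1.5-fold.

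Ratios within families were set out for 16 pairs of paralogs, of which 8 had a ratio that differed by over 1.5-fold between the treatments. The pairs were drawn from members chosen with earlier results of these data known. No such share was computed for other pairs of genes, so the count of 8 has no background beside it. These 8 were the pairs of DNMT3B with DNMT3A and with DNMT3L, of TET1 with TET2 and with TET3, of CBX7 with CBX2, CBX6 and CBX8, and of SMARCA2 with SMARCA4. They are not separate observations, since CBX7 enters 3 of them and DNMT3B and TET1 2 each, and the ratio with DNMT3L rests on a level near 0.05 FPKM. The ratios of HDAC1 to HDAC2 (1.22 with DAPT and 1.32 with ethanol), KDM5B to KDM5A (5.67 and 6.45) and KDM4B to KDM4A (0.623 and 0.633) moved little.

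Other genes of the same complexes were read from 12 lists of 180 genes drawn up by family. Of these, 179 were found in the table (EZHIP was not matched) and 168 passed the filter, with a median log2 fold change of 0.09. Past 2-fold were 8 higher and 2 lower, together 5.95% of the 168, beside 11% of all genes. Both acetyltransferases past 2-fold were higher with DAPT. KAT6A, the acetyltransferase MOZ, had 4.68 FPKM in DAPT-treated and 0.868 FPKM in ethanol-treated cells, for a log2 fold change of 2.43, and the co-activator EP300 had 6.63 and 1.53 FPKM, a log2 fold change of 2.11. LCOR, SIN3A and HDAC8 were also past 2-fold higher. SIN3A, the scaffold that holds HDAC1 and HDAC2, had 10.3 and 4.14 FPKM, the class I deacetylase HDAC8 had 6.73 and 2.56 FPKM, and LCOR, one of whose protein forms is an accessory subunit of PRC2, had 3.23 and 0.960 FPKM.

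The remaining genes higher with DAPT were an SWI/SNF subunit and methyltransferases. PBRM1, the bromodomain subunit of the PBAF version of SWI/SNF, had 10.2 and 3.54 FPKM, a log2 fold change of 1.53. ASH1L, which methylates histone H3 and whose row overlaps another, had 3.85 and 1.28 FPKM, and SMYD2, a methyltransferase for histones and other proteins, had 30.3 and 14.8 FPKM. Lower with DAPT were DPPA3 and PHC1. DPPA3, which in the mouse egg limits DNA methylation by UHRF1, had 0.355 FPKM in DAPT-treated and 2.51 FPKM in ethanol-treated cells, for a log2 fold change of -2.82. PHC1, a PRC1 subunit whose row overlaps another, had 15.0 and 33.1 FPKM, a log2 fold change of -1.14, while its paralog PHC2 had 46.3 and 29.1 FPKM, 0.67. PHC1 was therefore the second PRC1 gene past 2-fold lower, after CBX7.

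The 2 highest genes of each list, ranked by the higher of their 2 levels, were 24 genes. Of these, 22 were within 1.5-fold and 13 within 1.2-fold, and the 2 past 1.5-fold were PHC2 and SMYD2, both higher with DAPT. SKP1, which also serves many ubiquitin ligases outside PRC1, had 134 and 135 FPKM, RBBP7, a histone chaperone of PRC2 and of deacetylase complexes, 62.9 and 61.5 FPKM, and SMARCB1, a core subunit of SWI/SNF, 71.7 and 72.0 FPKM. CHD4, the remodeler of the NuRD complex, had 68.0 and 61.3 FPKM, and HDAC3 had 49.1 and 51.9 FPKM. TRIM28, the co-repressor that recruits SETDB1, was the highest of these with ethanol and second to SKP1 with DAPT, with 117 FPKM in DAPT-treated and 159 FPKM in ethanol-treated cells, for a log2 fold change of -0.45. SMARCE1, the highest SWI/SNF gene of its list with DAPT and under SMARCB1 with ethanol, had 81.4 and 62.5 FPKM, 1.30-fold higher with DAPT. The heterochromatin protein CBX3 had 75.4 and 60.6 FPKM, 1.24-fold higher. Its relative CBX1, which follows it in level and was named after its values were seen, had 64.1 and 38.4 FPKM, 1.67-fold higher.

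Transcript length and GC content moved weakly with the log2 fold change, across the regulators and in the table at large. Of the 8 list genes higher with DAPT, 6 have a canonical transcript longer than the median of all genes past the filter (3288 bases), up to 16001 bases in LCOR. The other 2 are SMYD2 and HDAC8 with 1745 and 1754 bases. Of the 2 list genes lower with DAPT, 1 is also longer, PHC1 with 5390 bases. The 45 regulators had a median of 5095 bases. The share of all list genes longer than 3288 bases was not computed, so the count of 6 does not show a link to direction. Among the regulators the 4 past 1.5-fold higher had a median GC content of 46.8% and the 4 lower 54.3%, and over all genes the values were 46.4% and 55.1%. Spearman's rho across the 45 regulators was 0.21 between transcript length and log2 fold change and -0.30 for GC content, and across 11870 genes it was 0.27 and -0.29. Genes are not independent replicates and share their libraries, and the part of length and GC content in the values of SMARCA2, DNMT3B and CBX7 was not tested.

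**Figure D5:**
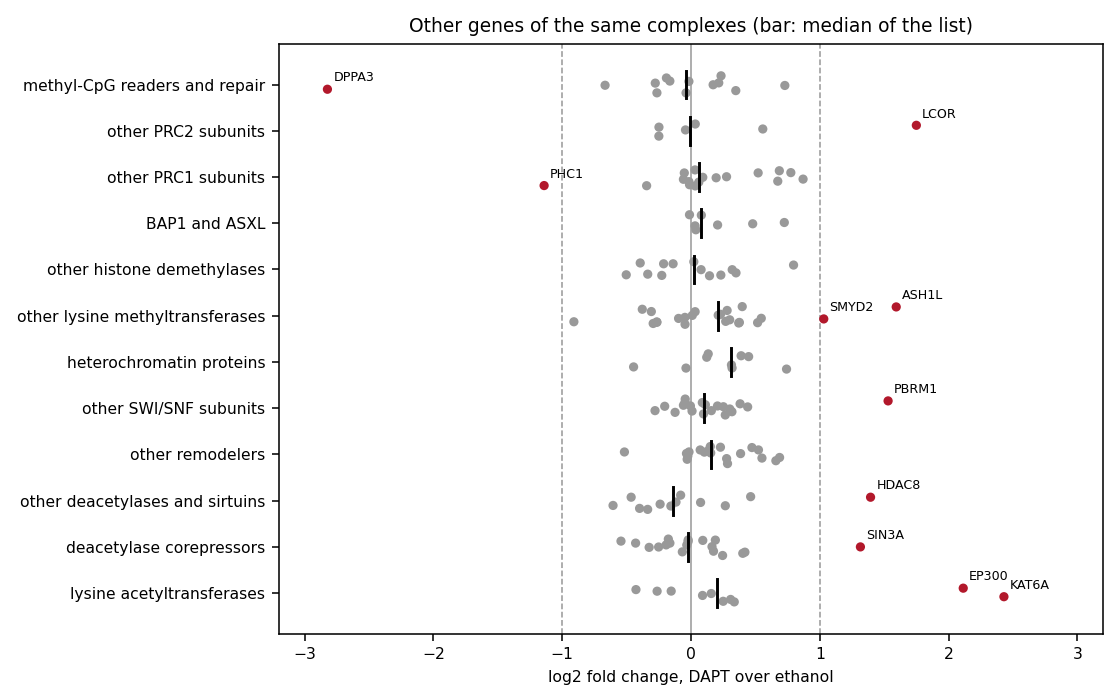
Log2 fold change, DAPT over ethanol, of 168 other genes of the same complexes by list (y axis), 1 point per gene from pooled FPKM, with a black bar at the median of each list and dashed lines at 2-fold. The 10 red points are the 8 genes past 2-fold higher, up to KAT6A at 2.43, and the 2 past 2-fold lower, DPPA3 at -2.82 and PHC1 at -1.14.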

How the data were processed

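The FPKM values were computed by the authors and deposited as 1 pooled value per treatment over 3 libraries. Per the labels and the methods, reads were mapped to hg19 with TopHat 2.0.6 and expression was computed with Cufflinks 2.0.2. Libraries were stranded, per the methods, and the strand setting in mapping and counting, the annotation and the scaling of libraries were not given in the sources used here. Columns of the authors' own comparison (fold change, statistic, p and q values, call) were not used, except the mark of failed rows. Ratios were computed with pandas 2.3.3 in Python 3.11.15, with no pseudocount and with at least 1 FPKM in 1 treatment. The reliability of calls from single pooled levels was not tested. No test was possible, since no value per library was used. Members and lists were chosen with earlier results of these data known. Every member is given, those past 1.5-fold in full, and of each list those past 2-fold, up to 4, with up to 2 of the highest level. Marker genes were named as examples after their values were seen. Start windows and their coordinates came from RefSeq (GRCh38.p14), and transcript length and GC content from GENCODE (GRCh37), matched by symbol for 88.8% of the genes past the filter. Alternatives were other pseudocounts, filters, scalings and fold limits.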

Additional observations from a re-analysis of the deposited data

How the results depend on the processing

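No paired analysis was possible because the table holds 1 pooled value per treatment, and for the same reason no library could be left out in turn. With 1 FPKM added to each level, 1 regulator was past 2-fold lower, since CBX7 came to -0.75, and at a filter of 5 FPKM, which 35 regulators passed, 1 was lower, since CBX7 fell under it. At 1.5-fold 4 regulators were higher and 4 lower, and at 3-fold 0 were higher and 0 lower, where 5.5% of all genes were past that limit. Of the other genes of the complexes, 5 were past 2-fold higher and 1 lower at a filter of 5 FPKM, and 4 were lower with no filter. Without rows that overlap another, 1 was lower (PHC1 was left out). At 1.5-fold 18 were higher and 5 lower, 13.7% of the 168, and at 3-fold 4 were higher and 1 lower. Of all genes, 6.26% were past 2-fold with 1 FPKM added and 7.81% at a filter of 5 FPKM. With no filter the share was 17.8% of rows above 0 in both treatments. It was 10.6% without overlapping rows, and 22.6% were past 1.5-fold. Leaving out the rows marked as failed, or those on alternative haplotypes, was chosen after seeing the data and changed no call among the regulators. Of 188 alternative values of single regulators, 187 kept their side of 2-fold. The settings behind this count moved most values little, and regulators under the filter were counted as kept. The count therefore says little about how certain a call is. It also leaves out the 1.5-fold limit. With 1 FPKM added, TET1 (-0.56), TET2 (0.45) and EZH2 (0.57) came within 1.5-fold. SMARCA2, JARID2, CBX7, DNMT3B and KDM2B stayed past it. The number of paralog ratios that differed by over 1.5-fold was then 7, in place of 8. DNMT3B stayed only just past 2-fold, at -1.01 with upper quartile scaling and -1.01 with 1 FPKM added. Depth cannot be judged from these values, so low levels such as that of CBX7 have no counting error beside them.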
